A study of Homo sapiens with 4 samples.

Results

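CXCR4, CXCL12 and ACKR3 encode the receptor, the ligand and the scavenging receptor of one chemokine axis. These 3 genes were taken by symbol from a table of 58365 rows, and each symbol had a single row. RNA-seq covered 4 libraries from the established line H1, which consists of pluripotent human embryonic cells (hESC), at day 8 of stepwise hematopoietic differentiation. All 4 cultures received 40 ng/ml activinA and 50 ng/ml BMP4 for 2 days, then 40 ng/ml VEGF and 50 ng/ml bFGF for 3 days, and the same VEGF and bFGF for the last 3 days. In that last step the 2 SB libraries had SB431542, an inhibitor of the TGFβ type I receptor kinases, and the 2 DMSO libraries did not. The study describes collecting CD31+ cells for sequencing, which the labels do not mention. The labels do not say whether replicates 1 and 2 came from separate cultures, so the tests measure the spread between these libraries. Values are FPKM, fragment numbers scaled to transcript length and to the mapped total of the library, so that levels of different genes can be set side by side per length.

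CXCL12 is secreted by stromal and perivascular cells and binds both receptors. CXCR4 signals through inhibitory G proteins and draws cells toward the ligand. It marks arterial and hemogenic endothelium, definitive endoderm and blood progenitors. ACKR3 couples to arrestins, internalizes CXCL12 and thereby lowers and shapes the ligand outside the cell. All 3 genes are protein coding, and none overlaps another annotated gene in GENCODE release 29 on GRCh38. CXCR4 (ENSG00000121966.6) lies on the minus strand of chromosome 2, from 136114349 to 136118165. ACKR3 (ENSG00000144476.5) lies on the plus strand of the same chromosome, from 236567787 to 236582358. CXCL12 (ENSG00000107562.16) lies on the minus strand of chromosome 10, from 44370165 to 44386493. The main transcripts in this annotation encode proteins of 352, 362 and 89 residues for CXCR4, ACKR3 and CXCL12.

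The receptors differ in coding sequence at the end of the third transmembrane helix, where chemokine receptors carry an aspartate, arginine and tyrosine motif used in G protein coupling. The 7 codons from this motif onward are shown because this stretch is a known point of difference between classical chemokine receptors and ACKR3. Capitals mark the motif. They come from GENCODE release 29 transcripts, codons 133 to 139 of CXCR4 in exonic sequence at chr2:136115511-136115531 (minus strand) and codons 141 to 147 of ACKR3 at chr2:236580886-236580906 (plus strand).
CXCR4: GACCGCTACctggccatcgtc
ACKR3: GACCGCTACctctccatcacc
The stretches differ at 4 of 21 bases, all after the motif, and 2 of the 4 residues that follow the motif are the same.

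CXCR4 was high in both DMSO libraries and lower in both SB libraries. Its level was 92.9 FPKM in DMSO replicate 1 and 127 FPKM in DMSO replicate 2, against 51.2 FPKM in SB replicate 1 and 61.2 FPKM in SB replicate 2. The groups did not overlap. The means were 109.8 ± 23.9 FPKM with DMSO and 56.2 ± 7.09 FPKM with SB431542 (SD, n = 2 each), a ratio of 0.512. On the log2(FPKM + 1) scale the difference was -0.94 (SE 0.22, 95% interval -1.52 to -0.36). With limma it had an unadjusted p of 0.00894 and did not pass the adjustment over all genes tested (adjusted p 0.274). Within replicate number 1 the SB library was 44.9% below the DMSO library, and within number 2 it was 51.6% below.

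ACKR3 differed in the other direction. It stood at 48.9 FPKM in DMSO replicate 1 and 52.3 FPKM in DMSO replicate 2, against 72.7 FPKM in SB replicate 1 and 65.8 FPKM in SB replicate 2. Both SB libraries were above both DMSO libraries. The means were 50.6 ± 2.47 FPKM with DMSO and 69.2 ± 4.94 FPKM with SB431542 (SD, n = 2 each), a ratio of 1.37. The log2 difference was 0.44 (SE 0.16, 95% interval 0.025 to 0.86). In limma its unadjusted p was 0.0416 and its adjusted p 0.477, so that ACKR3 did not pass either. The SB library was 48.9% above the DMSO library within number 1 and 25.6% above it within number 2.

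Because the receptors stood apart in opposite directions, their balance within each library differed more than either level. The ratio of CXCR4 to ACKR3, which no linear scaling of a library can alter, was 1.90 and 2.42 in the DMSO libraries and 0.704 and 0.931 in the SB libraries. CXCR4 was thus the more abundant receptor RNA in both DMSO libraries, and ACKR3 in both SB libraries. CXCR4 made up 68.1% ± 3.69 of the sum of both receptors with DMSO and 44.8% ± 4.88 with SB431542 (SD, n = 2 each). The mean log2 ratio differed by -1.41. The sum of both was 142 and 179 FPKM with DMSO and 124 and 127 FPKM with SB431542. The exact two-sided permutation test of the log2 ratio gave p = 0.333, the smallest that 2 libraries a group allow.

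**Figure D1:**
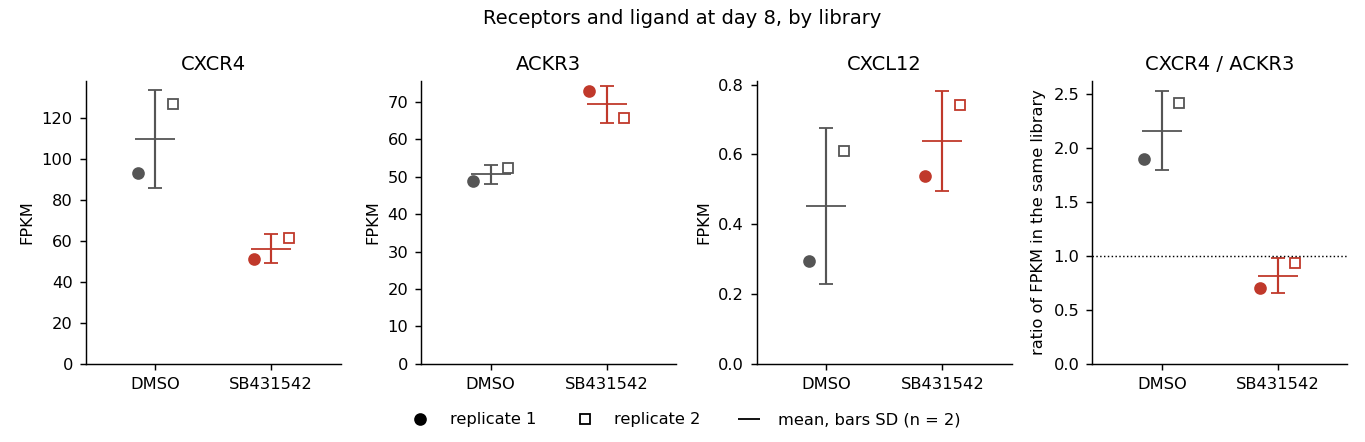
FPKM of CXCR4, ACKR3 and CXCL12 and the ratio of CXCR4 to ACKR3 (vertical axes) in the DMSO and SB431542 libraries; points are libraries, horizontal marks the mean and bars the SD of 2 libraries. CXCR4 is lower and ACKR3 higher in both SB libraries, CXCL12 overlaps between groups below 1 FPKM, and the ratio moves from above 1 (1.90 and 2.42) to below 1 (0.704 and 0.931, dotted line at 1).

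CXCL12 was low, under 1 FPKM in every library. It stood at 0.294 FPKM in DMSO replicate 1, 0.610 FPKM in DMSO replicate 2, 0.537 FPKM in SB replicate 1 and 0.740 FPKM in SB replicate 2. The groups overlapped, since DMSO replicate 2 was above SB replicate 1. CXCL12 did not reach a mean of 1 FPKM in either group, the minimum for the main test, and its difference was taken from a fit without that filter. It was 0.18 on the log2(FPKM + 1) scale (SE 0.16, 95% interval -0.31 to 0.67), with a limma adjusted p of 0.768. A difference in the ligand was therefore not detectable here, and the pseudocount of 1 compresses values this low. CXCL12 RNA amounted to between 0.00316 and 0.0121 of the CXCR4 RNA per length. In bulk RNA, fewer cells of a type and less RNA per cell cannot be told apart, for the ligand as for both receptors.

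The order of levels differed between groups. With DMSO it was CXCR4, ACKR3 and CXCL12, and with SB431542 it was ACKR3, CXCR4 and CXCL12, with no overlap between neighbours in either order. Across groups, the SB values of CXCR4 (51.2 and 61.2 FPKM) and the DMSO values of ACKR3 (48.9 and 52.3 FPKM) overlapped. CXCR4 ranked 965 and 574 among all rows of the table in the DMSO libraries and 2037 and 1478 in the SB libraries. ACKR3 ranked 2079 and 1689 with DMSO and 1349 and 1345 with SB431542. CXCL12 ranked between 15055 and 17809.

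Of the 3 genes, 2 were tested across the table and 0 passed the limma adjustment, while 0.134% of the 14909 genes tested passed in either direction. At an unadjusted p under 0.05, 4.8% of these genes were higher and 5.16% were lower with SB431542, and CXCR4 and ACKR3 were among the lower and the higher ones. The groups did not overlap for these 2 receptors. They also did not overlap for 37.5% of all genes tested, a share that 2 libraries a group give easily. The size of the CXCR4 difference was less common, since 2.56% of the genes tested were at least as far below 0. For ACKR3, 8.59% were at least as far above 0. The median difference of all genes tested was 0.04.

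**Figure D2:**
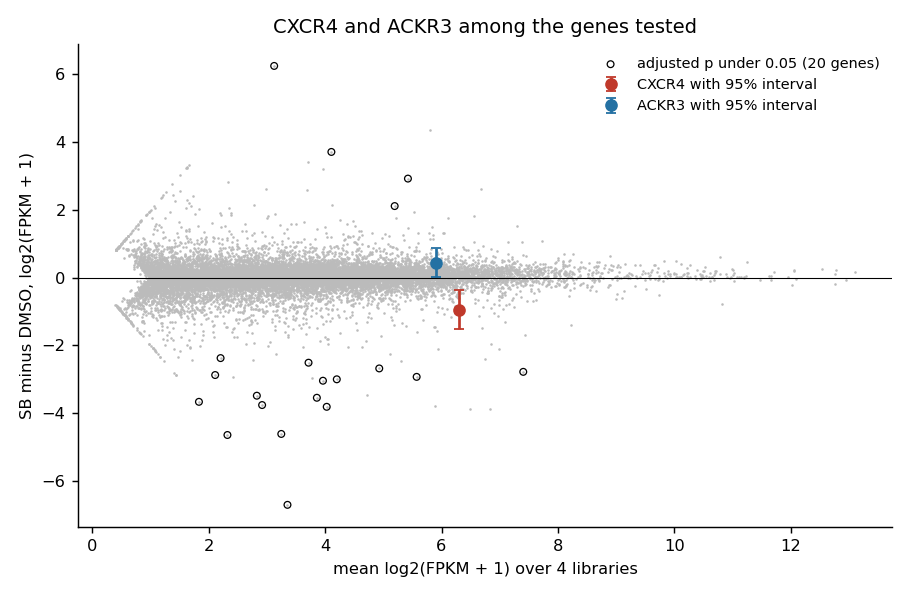
SB minus DMSO difference in log2(FPKM + 1) (vertical axis) against mean log2(FPKM + 1) over 4 libraries (horizontal axis) for 14909 genes; open circles are the 20 genes with an adjusted p under 0.05, and bars on CXCR4 and ACKR3 are 95% intervals. CXCR4 lies at -0.94 and ACKR3 at 0.44, and neither is among the called genes. Of all genes tested, 2.56% were at least as far below 0 as CXCR4 and 8.59% at least as far above 0 as ACKR3.

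The libraries also differed in ways that the groups do not explain, in part by replicate number. Relative depth, read from the steps of the lowest values, ranged from 75.6% to 100% of the deepest library, and the absolute depth is unknown. Depth did not follow replicate number, at 93.8% and 90.3% for DMSO replicates 1 and 2 and 75.6% and 100% for SB replicates 1 and 2. The mitochondrial share of summed FPKM was 5.88% and 6.64% for replicate 1 of DMSO and SB, and 9.92% and 10.2% for replicate 2. The share of RN7SL RNAs, the RNA of the signal recognition particle, was 4.45% and 3.96% for replicate 1 and 1.40% and 1.54% for replicate 2. CXCR4 was higher in replicate 2 than in replicate 1 of both groups, while the replicates of ACKR3 were in opposite order between groups. With the libraries rescaled without mitochondrial and RN7SL RNAs, the differences were -0.99 for CXCR4 and 0.40 for ACKR3. Beyond this rescaling, the part of these shares in the receptor values was not tested. When a single library was left out, the CXCR4 difference lay between -1.16 and -0.72 and the ACKR3 difference between 0.37 and 0.52. Leaving out DMSO replicate 2 brought CXCR4 closest to 0. Leaving out SB replicate 1 did so for ACKR3.

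The genes whose pattern over the 4 libraries was most like that of CXCR4 were RBMS3, CCDC3, COL11A1, SLIT2 and AL731533.2, with root mean square differences of 0.034 to 0.059 in centred log2(FPKM + 1). SLIT2, the secreted ligand of ROBO receptors, stood at 9.20 and 11.6 FPKM with DMSO and at 4.26 and 5.16 FPKM with SB431542. The closest to ACKR3 were SMARCA2, HNRNPA3, DTD1, ERAP1 and STX7 (0.020 to 0.024). The chromatin remodeling ATPase SMARCA2 stood at 13.3 and 14.8 FPKM with DMSO and 20.6 and 18.2 FPKM with SB431542. The closest to CXCL12 were CEP85, THAP9, VTA1, HADHA and EI24 (0.0099 to 0.0116), at levels of 1.18 FPKM and above. With 4 libraries, likeness of this kind is a description.

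Genes for other ligands, and for proteins that cut or hold ligands, were more often lower than higher with SB431542. Of 24 genes for other ligands and ligand processing, 19 were tested, 0 passed the adjustment, and at an unadjusted p under 0.05 7 were lower and 2 higher. Their median difference was -0.46 (-0.28 over the listed genes without the filter on low values). In 10 of the 19 genes the SB libraries were below the DMSO libraries without overlap, and in 4 above. For this and the following lists, the shares over all 14909 genes tested serve as background. The groups did not overlap in 37.5% of them, and 5.16% were lower and 4.8% higher at an unadjusted limma p under 0.05. DPP4, the peptidase that trims CXCL12 at its amino end, stood at 2.23 and 3.16 FPKM with DMSO and at 0.477 and 0.402 FPKM with SB431542 (log2 difference -1.35, limma adjusted p 0.173). MMP2, a matrix protease that also cleaves CXCL12, stood at 93.9 and 72.5 FPKM with DMSO and 28.3 and 24.4 FPKM with SB431542 (-1.61, adjusted p 0.0969 in limma). The heparan sulfate proteoglycans GPC3 and SDC2, of a class that holds chemokines at the cell surface, had differences of -2.03 and -1.02. These genes are shown for having the smallest unadjusted p of the list. DPP4 passed the filter only through its DMSO libraries, and CTSG, also of this list, only through its SB libraries.

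Genes that carry the CXCR4 signal were not lower as a group. All 27 transducers were tested, 0 passed the adjustment, and at an unadjusted p under 0.05 4 were higher and 1 was lower, with a median difference of 0.14. The 4 were RAC2, VAV1, PTK2B and PIK3R5. RAC2, a small GTPase of blood cell migration, stood at 23.9 and 26.1 FPKM with DMSO and at 65.3 and 57.9 FPKM with SB431542 (log2 difference 1.27, limma adjusted p 0.105). VAV1, an exchange factor for RAC proteins, stood at 12.4 and 11.7 FPKM with DMSO and 23.7 and 23.0 FPKM with SB431542 (0.90). The kinase PTK2B and the PI3K subunit PIK3R5 had differences of 1.02 and 1.08.

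Genes of desensitization and endocytosis were split. Of 20 tested, 0 passed the adjustment, 2 were higher and 2 lower at an unadjusted p under 0.05, and the median difference was -0.01. RGS proteins shorten G protein signaling. RGS4 passed the filter only through its DMSO libraries. RGS5, a pericyte gene, stood at 169 and 271 FPKM with DMSO and at 75.7 and 97.5 FPKM with SB431542 (log2 difference -1.31, limma adjusted p 0.251), and RGS2 had a difference of -0.65. The blood-cell members RGS10 and RGS18 had differences of 0.64 and 1.19. For RGS18 the difference was 0.67 without DMSO replicate 1 and 1.71 without DMSO replicate 2. RGS5 has a second identifier in the table with overlapping coordinates, so its level is uncertain.

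Among 16 factors known to act on the CXCR4 or CXCL12 gene, all were tested and 0 passed the adjustment. At an unadjusted p under 0.05, 2 were lower and 3 higher, with a median of -0.02. FOXC2, a forkhead factor of arterial and lymphatic endothelium that activates CXCR4, stood at 6.08 and 4.06 FPKM with DMSO and at 0.904 and 0.474 FPKM with SB431542 (log2 difference -1.84, limma adjusted p 0.135). EPAS1, which encodes the hypoxia factor HIF-2α, had a difference of -0.67, while EGLN3, a prolyl hydroxylase that marks HIF proteins for breakdown, had 0.56. RUNX1, the core factor of blood emergence, stood at 35.3 and 33.6 FPKM with DMSO and at 69.8 and 53.7 FPKM with SB431542 (0.81). Over the whole list the groups did not overlap for 3 genes that were higher and 4 that were lower, beside the 37.5% of all genes tested. FOXC2 and EBF3 passed the filter only through their DMSO libraries.

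Adhesion and migration partners of the axis held 17 tested genes of 20. None passed the adjustment (0 genes), and 5 were higher and 1 lower at an unadjusted p under 0.05, with a median of 0.26 (0.14 without DMSO replicate 1). SELP, the P-selectin of platelets and endothelium, stood at 3.05 and 3.63 FPKM with DMSO and at 12.8 and 15.9 FPKM with SB431542 (log2 difference 1.82, limma adjusted p 0.0803). The integrin subunits ITGB2 and ITGA4, which blood cells use to arrest on endothelium, had differences of 0.85 and 0.73, and the surface signal CD47 had 0.71.

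**Figure D3:**
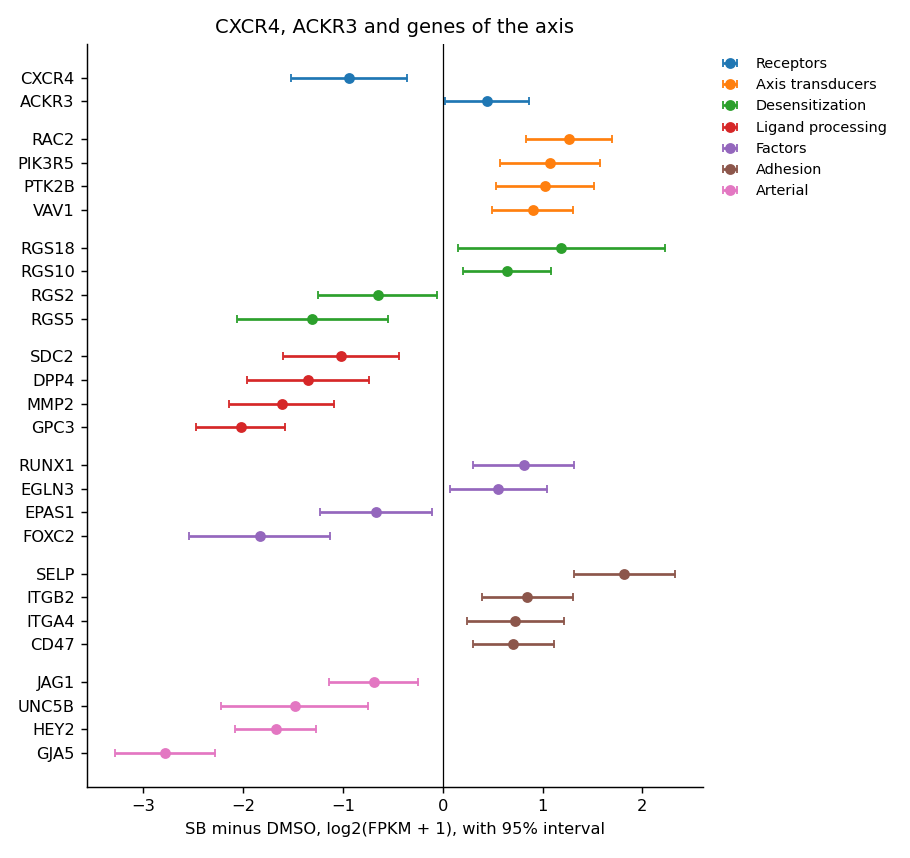
SB minus DMSO difference in log2(FPKM + 1) with its 95% limma interval (horizontal axis) for CXCR4, ACKR3 and 4 genes each of 6 fixed lists (vertical axis, colours), the 4 with the smallest unadjusted p. The genes shown were chosen by p and do not give the direction of their lists. CXCR4 lies at -0.94 and ACKR3 at 0.44, and of those shown, GJA5 has an adjusted p under 0.05.

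Within their family, CXCR4 and ACKR3 were the 2 most abundant of 25 chemokine and related receptors in each library. CXCR4 came first in both DMSO libraries and second in both SB libraries. It made up 60.3% and 66.8% of the summed FPKM of the family with DMSO and 34.8% and 41.2% with SB431542. ACKR3 made up 31.7% and 27.6% with DMSO and 49.5% and 44.2% with SB431542. The next by mean over the 4 libraries was CCRL2, another receptor that presents or scavenges ligand without G protein signaling, at 3.91 and 5.39 FPKM with DMSO and 12.01 and 11.9 FPKM with SB431542 (log2 difference 1.21, limma adjusted p 0.164). CCR10, a receptor of skin-homing lymphocytes, overlapped between groups at 2.98 to 5.74 FPKM and was above CCRL2 in DMSO replicate 1. Of the 25 receptors, 18 stayed below 1 FPKM in every library and 4 were listed at 0 in all of them.

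CXCL12 ranked 12 by mean among 44 chemokine ligands. The ligands that did reach the test were of another kind. Of 41 ligands listed apart from CXCL12, CXCL11 and CXCL14, 10 were tested and 0 passed the adjustment; at an unadjusted p under 0.05, 7 were higher and 2 lower. CXCL6, PF4V1 and PPBP passed the filter on low values only through their SB libraries, and CCL2 and CX3CL1 only through their DMSO libraries. Both counts are therefore no measure of the family. PF4, a platelet chemokine, stood at 32.6 and 49.7 FPKM with DMSO and at 199 and 322 FPKM with SB431542 (log2 difference 2.62, limma adjusted p 0.0969). CXCL2 and CXCL3, ligands of the neutrophil receptor CXCR2, had differences of 1.31 and 1.49. These ligands have close paralogs (PF4V1, CXCL1), and reads shared between them make single values uncertain.

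**Figure D4:**
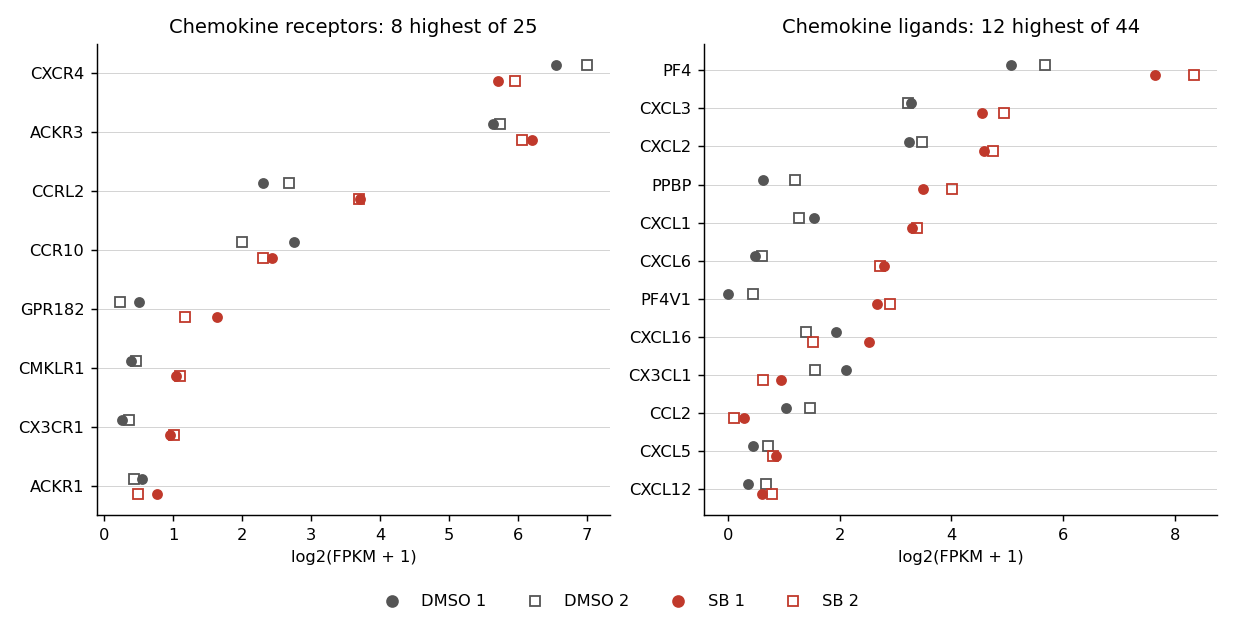
Level in log2(FPKM + 1) (horizontal axis) of the 8 highest of 25 chemokine receptors and the 12 highest of 44 chemokine ligands, in order of mean FPKM; each symbol is 1 library, grey for DMSO and red for SB. CXCR4 and ACKR3 stand apart from all other receptors and change places between groups. CXCL12 is the lowest ligand shown by mean, while PF4V1 was lower in both DMSO libraries and CCL2 in both SB libraries.

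Markers of cell types that can carry CXCR4 also differed between the groups. In the arterial list 17 of 20 genes were tested, with a median difference of -0.60; 1 passed the adjustment, and 9 were lower and 0 higher at an unadjusted p under 0.05. GJA5, an arterial connexin, passed, at 491 and 399.8 FPKM with DMSO and 69.3 and 58.3 FPKM with SB431542 (log2 difference -2.78, limma adjusted p 0.0365). This call did not survive the removal of any single library (adjusted p 0.0984 to 0.194 in limma). VEGFC, of the arterial list, passed the filter only through its DMSO libraries. The summed FPKM of the arterial markers was 2664 and 1983 with DMSO and 1431 and 1096 with SB431542. In the venous list, all 11 genes were tested, with a median of 0.44 (0.25 under the stricter filter of 5 FPKM in 2 libraries) and 4 higher at an unadjusted p under 0.05. LYVE1 and STAB2 passed the filter only through the SB libraries, where they were higher, and APLN only through its DMSO libraries. The count of 4 higher is therefore no measure of the list. The 11 venous genes summed to 535 and 398 FPKM with DMSO and to 591 and 479 FPKM with SB431542. No arterial or venous marker was listed at 0 in all libraries. The part of either marker list in the CXCR4 difference was not tested.

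Markers of definitive endoderm, which also expresses CXCR4, and of liver were lower with SB431542 in part. Of 19 endoderm and liver markers 14 were tested, 6 of them passing the filter only through their DMSO libraries and 1 only through its SB libraries. The median was -0.73, but it depended on the filter and pseudocount, at -0.40 with no filter, -2.96 with the stricter filter of 5 FPKM in 2 libraries and -1.63 with a pseudocount of 0.1. In the main test 5 passed the adjustment, all lower with SB431542. These were CST1, APOA1, AFP, TTR and APOA2. Of these, CST1 was among the genes that passed the filter only through their DMSO libraries. The embryonic serum protein AFP stood at 43.5 and 54.2 FPKM with DMSO and 3.45 and 3.05 FPKM with SB431542 (log2 difference -3.55, limma adjusted p 0.0232). Removal of any single library ended the calls of APOA1, AFP, TTR and APOA2 (adjusted p 0.0523 to 0.171 in limma). CST1 lost its call without DMSO replicate 1 and without SB replicate 2 (adjusted p 0.0456 to 0.111 in limma over all 4 removals). The list summed to 467 and 463 FPKM with DMSO and to 176 and 138 FPKM with SB431542. Of the mesenchymal markers, which mark likely sources of CXCL12, 13 of 15 were tested, with a median of -0.83 (-0.49 with no filter) and 8 lower at an unadjusted p under 0.05. Their sum was 971 and 922 FPKM with DMSO and 604 and 528 FPKM with SB431542. The sum includes RGS5. PRRX1, of the mesenchymal list, passed the filter only through its DMSO libraries. The collection of CD31+ cells that the study describes would leave out cells of both types that lack CD31. The purity of the collected cells is not given, and RNA of both marker lists was measured in every library. The part of endodermal or mesenchymal cells in the values of the 3 genes was not tested.

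Blood cell markers were mostly higher. Of 16, 15 were tested, with a median of 1.11; 0 passed the adjustment, and 11 were higher and 2 lower at an unadjusted p under 0.05. Their summed FPKM was 1163 and 1160 with DMSO and 1247 and 1276 with SB431542, a sum in which the embryonic globin HBZ (-2.12) ran the other way. CSF1R, the macrophage colony-stimulating factor receptor, stood at 2.77 and 1.83 FPKM with DMSO and at 14.4 and 12.5 FPKM with SB431542 (log2 difference 2.14, limma adjusted p 0.0753). General endothelial markers, all 15 of them tested, had a median of -0.11 and summed to 6241 and 4135 FPKM with DMSO and 4657 and 3372 FPKM with SB431542. The part of blood or endothelial cells in the ACKR3 and CXCR4 values was not tested.

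The remaining lists describe the libraries as such. Of 15 tested SMAD2/3 targets, 11 were lower at an unadjusted p under 0.05 and 0 were higher. CTGF passed the filter only through its DMSO libraries. The median was -1.71, against -1.30 with no filter and -1.88 with a pseudocount of 0.1. Of these targets 1 passed the adjustment, the matrix protein TGFBI (log2 difference -2.51, limma adjusted p 0.0365). The removal of any single library ended this call, with differences of -2.62 to -2.40. Of 20 housekeeping genes 1 was higher and 0 were lower at an unadjusted p under 0.05, with a median of 0.10. The pluripotency list had 5 tested genes of 8, with 2 higher and 1 lower by the same measure. POU5F1 passed the filter only through its SB libraries, and TDGF1 and ZFP42 only through their DMSO libraries. These counts are therefore no measure of the list.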

How the data were processed

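RNA was measured by RNA-seq in 2 DMSO and 2 SB libraries. The authors deposited FPKM values, 1 column per library, made by a service company; the submitters' processing notes name BWA, Bowtie, RSEM and the build hg19 without roles or versions. The row coordinates are nevertheless those of GRCh38: 95.5% of identifiers are in GENCODE release 29, 99.8% of these rows at the same position (starts counted from 1 here). Scaling between libraries and strand use are not given in the sources used here. The absolute depth, and with it the counting error, is unknown; 0 of 20 housekeeping genes were at 0.

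Values were analysed as log2(FPKM + 1) with limma 3.58.1 in R 4.3.3 (empirical Bayes with trend, group as the only term, all 4 libraries). Genes with a mean of at least 1 FPKM in a group were tested (14909), two-sided, with Benjamini-Hochberg adjustment and a threshold of 0.05. Fold changes on this scale understate those of low genes. The fit was tested on simulated data with independent errors between libraries. That setting lacks the correlation, given below, between libraries of the same number. Members and lists were chosen with earlier results of these data known. Besides the 3 members, genes of the lists are named where called or among the 4 smallest unadjusted p of a list, and genes where among the 3 highest of the other chemokine receptors or ligands, or where among the 5 most alike to a member. Of several rows of a symbol the highest was used. No promoter was printed, as no member passed, and no protein sequence was printed. Protein lengths and the residues after the motif were read from translated GENCODE coding sequences. Alternatives were a replicate block, other filters, a pseudocount of 0.1, 3 other scalings, no trend and the removal of each library.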

Additional observations from a re-analysis of the deposited data

How the results depend on the processing

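CXCR4 stayed lower and ACKR3 higher under all 12 alternatives, and CXCL12 stayed higher under the 10 that gave it a value (0.023 to 0.47; it could not be fitted under the stricter filter of 5 FPKM in 2 libraries). Leaving out single libraries gave -1.16 to -0.72 for CXCR4, 0.37 to 0.52 for ACKR3 and 0.023 to 0.34 for CXCL12. The other settings gave -1.0 to -0.94 for CXCR4 and 0.39 to 0.45 for ACKR3. With the replicate number as a replicate block, the differences of CXCR4 (-0.94, adjusted p 0.00879 in limma) and ACKR3 (0.44, adjusted p 0.0462) passed the threshold, as did 1564 genes, and 57 of 66 other named genes against 7 without the block. Across genes, deviations from the group mean correlated at 0.53 between libraries of the same number, but the labels do not say that a number marks a shared culture, so this pairing rests on the data alone. Without the block, the lowest adjusted p over alternatives was 0.274 for CXCR4 and 0.427 for ACKR3.

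The count of 20 genes passing became 0 without the filter (2739 at an unadjusted p under 0.05), 31 under quantile normalization, and 0 to 14 without single libraries, with 0 without DMSO replicate 1 (1168 at an unadjusted p under 0.05), 14 without DMSO replicate 2, 10 without SB replicate 1 and 9 without SB replicate 2. Of 777 alternative values of other named genes, 774 kept their direction. The exceptions were those of CCR10, near 0 at -0.0032, which became 0.0088 with a pseudocount of 0.1 and ranged from -0.38 to 0.38 without single libraries. Of 192 alternative values of the 16 list medians, 25 moved by more than the spread between replicates. The range was -2.96 to -0.40 for endoderm and liver, -1.04 to -0.49 for mesenchyme, -1.88 to -1.30 for SMAD2/3 targets, -0.78 to -0.49 for arterial and 0.89 to 1.27 for blood markers, 0.062 to 2.21 for other ligands and 0.030 to 1.40 for other receptors. The medians near 0 of the desensitization, factor and pluripotency lists changed sign. Causes were not tested. The absolute depth is unknown, and CXCL12 lay under 1 FPKM in every library.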
